A study of Homo sapiens with 16 samples.

Results

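CCL2, CCL5, CXCL10, CSF1 and ICAM1 are 5 of the 2646 human genes named in the authors' deposited table of enriched biological processes for brain metastases of the MDA231 line. They were chosen by name because that table lists them in at least 1 enriched term, and the measured values behind the choice are the table's own gene lists and p-values. Their presence in the table is therefore a description and carries no test. Together they were named 18 times in 17 of the 314 listed terms, and 1 term named more than 1 of them.

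The study labelled new RNA in brain metastases by Flura-seq, in which 5-fluorocytosine is converted by cells that carry the needed enzyme and the labelled RNA is pulled down with an anti-BrdU antibody. Brain metastatic derivatives of the human breast cancer lines MDA231 and HCC1954 were injected into mice, 5-fluorocytosine was given at 250 mg/kg, and brains were taken 12 hours later, after 30 days of growth. The labels give 4 input and 4 immunoprecipitated (IP) libraries for MDA231 and the same for HCC1954, 16 in all, each line being a single derivative. The files analysed hold 1 term table per line and no value per library, so no level, replicate error or depth can be given for any gene here. The strain and immune state of the mice, how the listed genes were chosen, and in which direction their IP and input RNA differed are not stated in any source used here, so no direction is attached to any gene below.

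Chemokines are small secreted proteins that bind G protein-coupled receptors on white blood cells and draw them towards the source. CC and CXC chemokines are told apart by the spacing of their first cysteines. CSF1, macrophage colony-stimulating factor, is a growth factor for macrophages and microglia, and ICAM1 is a cell surface adhesion molecule that binds leukocyte integrins. Genes of these families are commonly switched on by NF-kappaB and by interferons, in tumour cells as well as in glia and endothelium.

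CCL2 (ENSG00000108691) lies on GRCh38 chromosome 17, 34255218 to 34257203, plus strand, and CCL5 (ENSG00000271503) on the same chromosome, 35871491 to 35880793, minus strand. The gap between them is 1.61 megabases. CXCL10 (ENSG00000169245) lies on chromosome 4, 76021117 to 76023497, minus strand. CSF1 (ENSG00000184371) is on chromosome 1, 109910242 to 109930992, plus strand. ICAM1 (ENSG00000090339) is on chromosome 19, 10270835 to 10286615, plus strand. All 5 are protein-coding genes in GENCODE release 29. Only human identifiers were read from the MDA231 terms, 2646 in all, so a mouse identifier could not have been counted.

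The stretch directly before the CXCL10 start is shown because CXCL10 is the member listed under defense response to virus and its promoter holds recognisable NF-kappaB and interferon motifs. The 250 bases are from RefSeq (GRCh38.p14, chromosome 4, 76023498 to 76023747, minus strand), written 5′ to 3′ in the direction of transcription. Capitals mark matches to the interferon response element core GAAANNGAAA (the first) and to the NF-kappaB consensus (the other two), searched on both strands; the motifs do not overlap.

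CXCL10: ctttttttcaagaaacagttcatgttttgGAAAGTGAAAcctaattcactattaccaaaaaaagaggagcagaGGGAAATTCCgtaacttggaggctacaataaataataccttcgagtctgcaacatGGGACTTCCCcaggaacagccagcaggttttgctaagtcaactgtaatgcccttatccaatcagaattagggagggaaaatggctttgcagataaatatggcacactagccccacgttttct

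The interferon core began 221 bases before the start and the NF-kappaB matches 177 and 122 bases before it. Among 34943 RefSeq windows of the same 250 bases, 9.95% held an NF-kappaB match and 3.02% an interferon core. ICAM1, the other of 2 members covered by the promoter set used here, had neither motif in its window. It had a TATA box, TATAAA, 30 bases before the start. Those letters stood anywhere in the window, on either strand, in 10.8% of windows, and the share at that position was not counted. These matches describe letters only. No file here measures binding, and the absence of a match says nothing about the factor.

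The chemokine CCL2, also called monocyte chemoattractant protein, was in the most terms of the 5 members, namely 5. Protein phosphorylation named it among 134 of 456 background genes, with a fold of 1.36, an adjusted p of 0.0350 and an unadjusted p of 7.14e-05 in the authors' deposited table. The fold is the term's share of the listed genes over its share of the background, and its 95% exact binomial interval, computed here as for every term below, was 1.14 to 1.61. That term ranked 13 of 314 by p. It was the single member term past an adjusted p of 0.05, so 1 of 17 (5.88%) passed, against 4.78% of all 314 listed terms, and nothing about the members is read from so similar a share. CCL2 is a secreted ligand and not a kinase, and the other genes of that term included the kinases JAK1, JAK2, TYK2 and IKBKB.

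Other CCL2 terms did not pass the adjusted threshold. Cellular response to insulin stimulus held 26 of 77 genes, with a fold of 1.56 and an adjusted p of 0.697 in the authors' deposited table; the interval ran from 1.02 to 2.29. It named the insulin receptor INSR, its adaptor IRS2 and the PI3-kinase subunits PIK3R1 and PIK3R2 beside CCL2. The JAK-STAT cascade held 12 of 32 genes, with a fold of 1.74 and an adjusted p of 0.934 in the authors' deposited table; the interval ran from 0.898 to 3.03. Here CCL2 stood with the type I interferon receptor chains IFNAR1 and IFNAR2, the interferon IFNL1, the kinase JAK2, the transcription factor STAT5B, and the feedback inhibitors SOCS1, SOCS3, SOCS6 and PIAS1. Response to hypoxia, with 46 of 172 genes, had the lowest fold of the 17 terms, 1.24, and an adjusted p of 0.958 in the authors' deposited table. The interval was 0.908 to 1.65. Its genes included ADM, EGLN3 and ARNT of the hypoxia response and the heme oxygenases HMOX1 and HMOX2.

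CCL5, also called RANTES, a CC chemokine that attracts T cells and monocytes, was in 4 terms, all with an unadjusted p under 0.05 and none past the adjusted threshold. Response to virus held 36 of 110 genes, with a fold of 1.52 and an adjusted p of 0.547 in the authors' deposited table; the interval ran from 1.06 to 2.09. Negative regulation of viral genome replication held 16 of 40, with a fold of 1.85 and an adjusted p of 0.668 in the authors' deposited table; the interval ran from 1.06 to 3.00. In both, CCL5 was named with the oligoadenylate synthetase genes OAS1, OAS3 and OASL, the RNA editor ADAR, the tethering protein BST2, the exonuclease ISG20 and RSAD2, all of them genes of antiviral defence. The remaining terms describe the assembly of proteins. Protein tetramerization also held 16 of 40 genes, with a fold of 1.85 and an adjusted p of 0.668 in the authors' deposited table; the interval ran from 1.06 to 3.00. Its other genes were mostly metabolic enzymes such as CAT, FH and ADSL. Cellular protein complex assembly held 9 of 18, with a fold of 2.32 and an adjusted p of 0.774 in the authors' deposited table; the interval ran from 1.06 to 4.39. CSNK2B, TRAF2, AXIN1 and the fibrinogen chains FGB and FGG were among its genes.

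CXCL10, an interferon-inducible CXC chemokine that attracts activated T cells, was in 3 terms. Defense response to virus was the largest, with 52 of 165 genes, a fold of 1.46 and an adjusted p of 0.397 in the authors' deposited table. The interval was 1.09 to 1.91. Its genes included the interferon-induced IFIT2, IFIT3 and ISG15, the adaptors MAVS and STING1, the kinase TBK1, and the RNA polymerase III subunits POLR3C, POLR3D and POLR3F. Regulation of protein kinase activity held 14 of 34 genes, with a fold of 1.91 and an adjusted p of 0.730 in the authors' deposited table; the interval ran from 1.04 to 3.20. Its other genes included several of growth and energy signalling: MTOR, TSC1, CAMKK2, CDK4 and the AMP-activated kinase subunits PRKAB1 and PRKAB2.

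The third CXCL10 term, response to gamma radiation, was the only term of the 17 to name 2 members, CCL2 and CXCL10. It held 12 of 31 genes, with a fold of 1.79 and p-values of 0.0537 unadjusted and 0.899 adjusted in the authors' deposited table; the interval ran from 0.927 to 3.13. The other 10 genes were BAK1, CHEK2, GATA3, MEN1, MYC, POLB, POLG, TIGAR, TRIM13 and XRCC2, which include the checkpoint kinase CHEK2, the DNA polymerases POLB and POLG, and XRCC2, a gene of recombination repair. Its fold was 1.60 once all 5 members were left out of the term, the list and the background, and its unadjusted p lay above 0.05 before that.

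CSF1 was in 2 terms, the fewest of the 5 members, and both were small. Regulation of ossification held 6 of 11 genes, with a fold of 2.53 and p-values of 0.0673 unadjusted and 0.933 adjusted in the authors' deposited table; the interval ran from 0.927 to 5.49. This was the highest fold among the 17. Beside CSF1 they included ACVR1, a bone morphogenetic protein receptor, DHRS3, INTU and the p38 kinase MAPK14. Branching involved in mammary gland duct morphogenesis held 6 of 12 genes, with a fold of 2.32 and p-values of 0.0955 unadjusted and 0.965 adjusted in the authors' deposited table; the interval ran from 0.850 to 5.03. Here CSF1 stood with ETV4, KDM5B, LRP5, MSX2 and TBX3, of which ETV4, MSX2 and TBX3 are transcription factors of development and LRP5 is a Wnt co-receptor. The largest unadjusted p of any listed MDA231 term was 0.0973, so this term lay just inside the table's edge. Neither term named another member, and both intervals include 1.

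ICAM1 was in 4 terms, all with an unadjusted p under 0.05 and none past the adjusted threshold. Negative regulation of extrinsic apoptotic signaling pathway via death domain receptors held 17 of 33 genes, with a fold of 2.39 and p-values of 0.000558 unadjusted and 0.135 adjusted in the authors' deposited table; the interval ran from 1.39 to 3.81. It ranked 25 of 314 and named, beside ICAM1, the death receptor FAS, the death receptors TNFRSF10A and TNFRSF10B with their ligand TNFSF10, and the signalling proteins FADD, TRADD, CASP8, CFLAR, TRAF2 and TNFAIP3. Response to ionizing radiation held 22 of 49 genes, with a fold of 2.08 and an adjusted p of 0.148 in the authors' deposited table; the interval ran from 1.30 to 3.14. Many of its genes are known for DNA repair and its signalling, such as RAD51C, RAD51D, RNF168, DCLRE1C, BABAM1, BABAM2 and UIMC1.

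Interferon-gamma-mediated signaling pathway held 27 of 71 genes, with a fold of 1.76 and an adjusted p of 0.382 in the authors' deposited table; the interval ran from 1.16 to 2.56. ICAM1 was named there with both interferon-gamma receptor chains, IFNGR1 and IFNGR2, the kinases JAK1 and JAK2, the interferon regulatory factors IRF2, IRF3 and IRF7, and the guanylate-binding proteins GBP1 and GBP2. Viral entry into host cell held 26 of 80 genes, with a fold of 1.51 and an adjusted p of 0.791 in the authors' deposited table; the interval ran from 0.984 to 2.20. Its other genes are largely surface proteins of the kind viruses use as receptors, among them CD55, CD81, CLDN1, CXADR, F11R, NECTIN1, NECTIN4, PVR and the integrin subunit ITGAV. ICAM1 was not among the 86 genes of cell-cell adhesion, the one listed term with adhesion in its name.

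**Figure D1:**
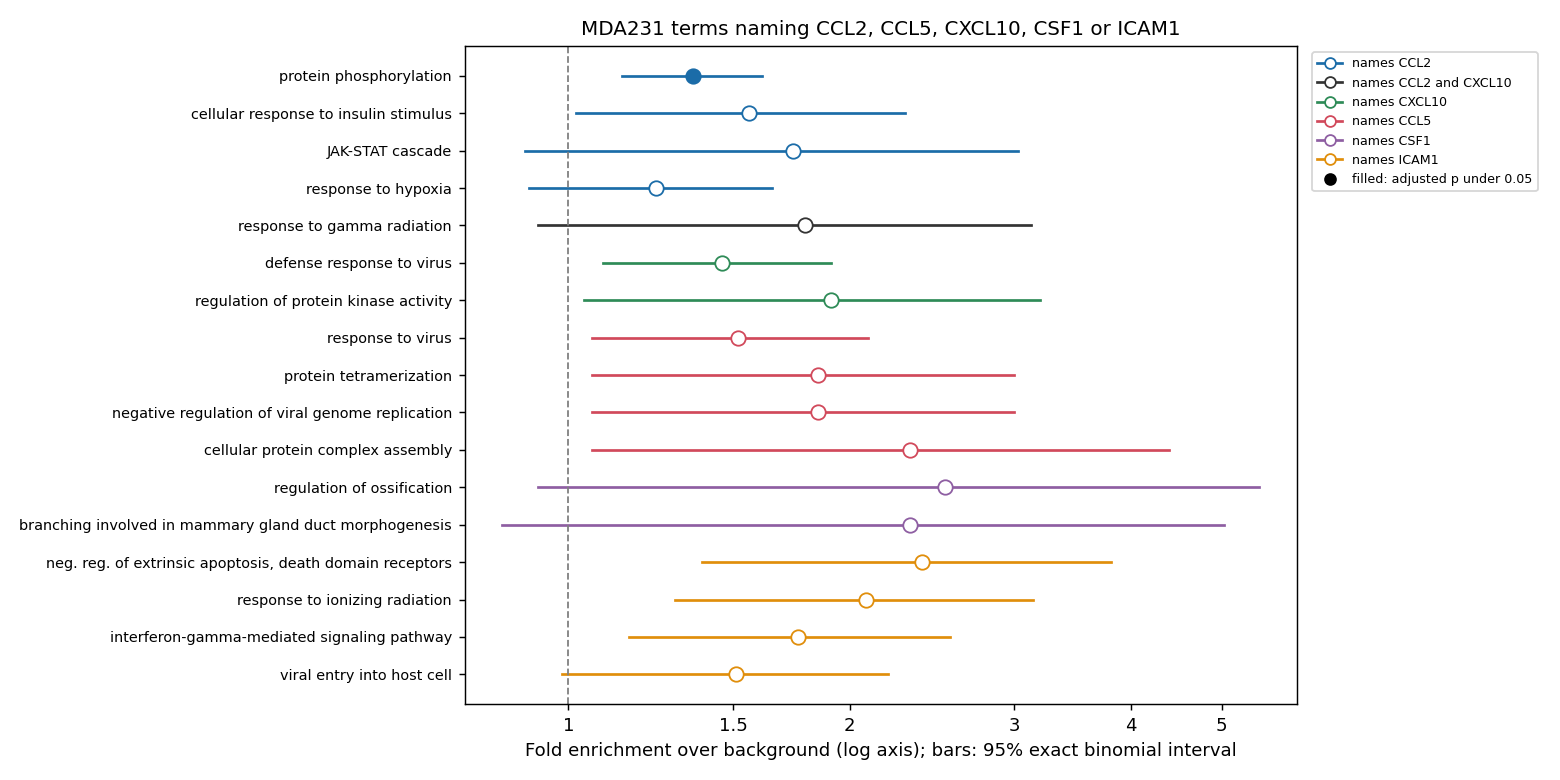
The authors' fold enrichment (points, log axis, 1 marked by a dashed line) of the 17 MDA231 terms that name a member, with 95% exact binomial intervals computed here, coloured by the member named. Folds run from 1.24 for response to hypoxia to 2.53 for regulation of ossification, and protein phosphorylation alone is filled for an adjusted p under 0.05.

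Across the 17 terms the median fold was 1.79 in the authors' deposited table and the median term held 40 background genes, against 1.93 and 30.5 over all 314 terms. An unadjusted p under 0.05 was found for 12 of 17 (70.6%), against 68.2% of all listed terms. By the authors' Bonferroni p under 0.05, 0 of 17 passed against 3.18% of all listed terms, and by their false discovery rate under 5 percent 3 of 17 passed against 11.5%. The plot of folds shows that intervals of 6 terms include 1: viral entry into host cell, response to gamma radiation, the JAK-STAT cascade, response to hypoxia and both CSF1 terms. The intervals cover the draw of genes into the list and no spread between libraries, and both CSF1 upper bounds pass 4.63, the largest fold this list allows, since the binomial interval is not limited to the number of background genes in a term. Placed among all terms by p, the 4 best ranked member terms were protein phosphorylation with CCL2, at 13, and ICAM1 terms at 25, 27 and 37. The other CCL2 terms ranked between 112 and 289, and the CSF1 terms ranked 232 and 301.

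**Figure D2:**
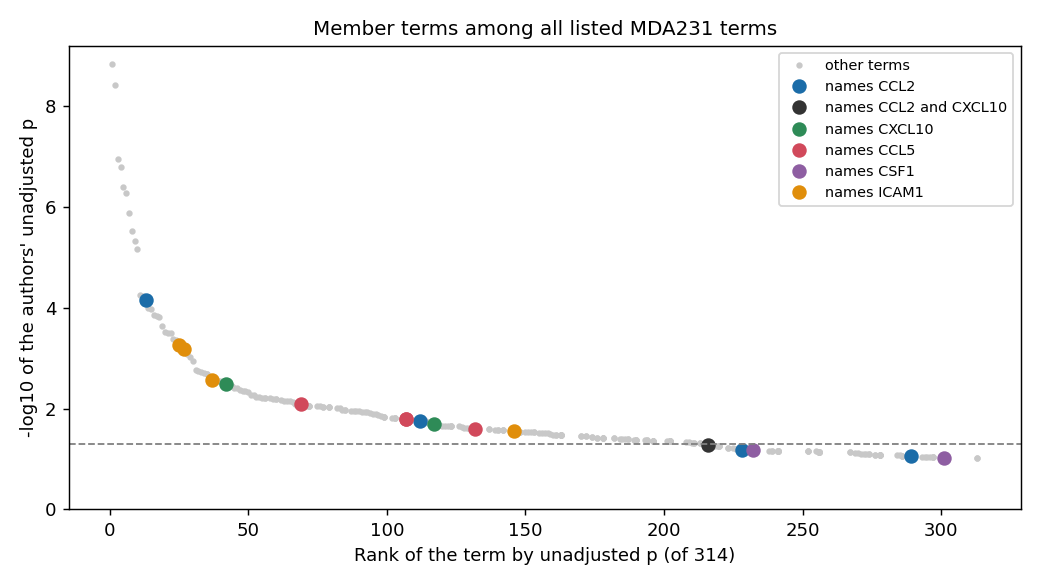
Minus log10 of the authors' unadjusted p (vertical axis) against rank by p (horizontal axis) for all 314 MDA231 terms, with terms naming a member coloured and a dashed line at p = 0.05. Member terms are spread from rank 13 to rank 301, and 5 of the 17 lie below the line.

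Among the 2646 named genes the median was 2 terms per gene. CCL2, with 5 terms, was matched or passed by 361 genes (13.6%), and CCL5 and ICAM1, with 4, by 596 (22.5%). CXCL10, with 3, was matched or passed by 36.7% of named genes, and CSF1, with 2, by 60.4%. Named genes make up 15.8% of the 16792 background genes. In the HCC1954 table, with 66 listed genes that had a process, none of the 5 members was named in any of the 37 terms, which name 30 genes. Of all 2646 genes named for MDA231, 0 were named for HCC1954, so this absence is not particular to the members. A gene outside every listed term is not printed in either table, so the absence does not show that a member differed between the lines.

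Although 9 of the 10 pairs of members shared no term, some of their terms shared genes. The median named gene was in 2 of the 314 terms. No share over all pairs of genes or of terms was computed, so nothing particular to the members is read from the counts that follow. Defense response to virus, which names CXCL10, and response to virus, which names CCL5, had 15 genes in common, 28.8% of the former and 41.7% of the latter. Neither names the other's chemokine. Negative regulation of viral genome replication, a CCL5 term, had 12 genes in common with defense response to virus, which is 75.0% of its own genes and 23.1% of the larger term. ICAM1's interferon-gamma term shared 9 genes with defense response to virus (33.3% of its own and 17.3% of the other) and 7 with response to virus (25.9% and 19.4%).

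**Figure D3:**
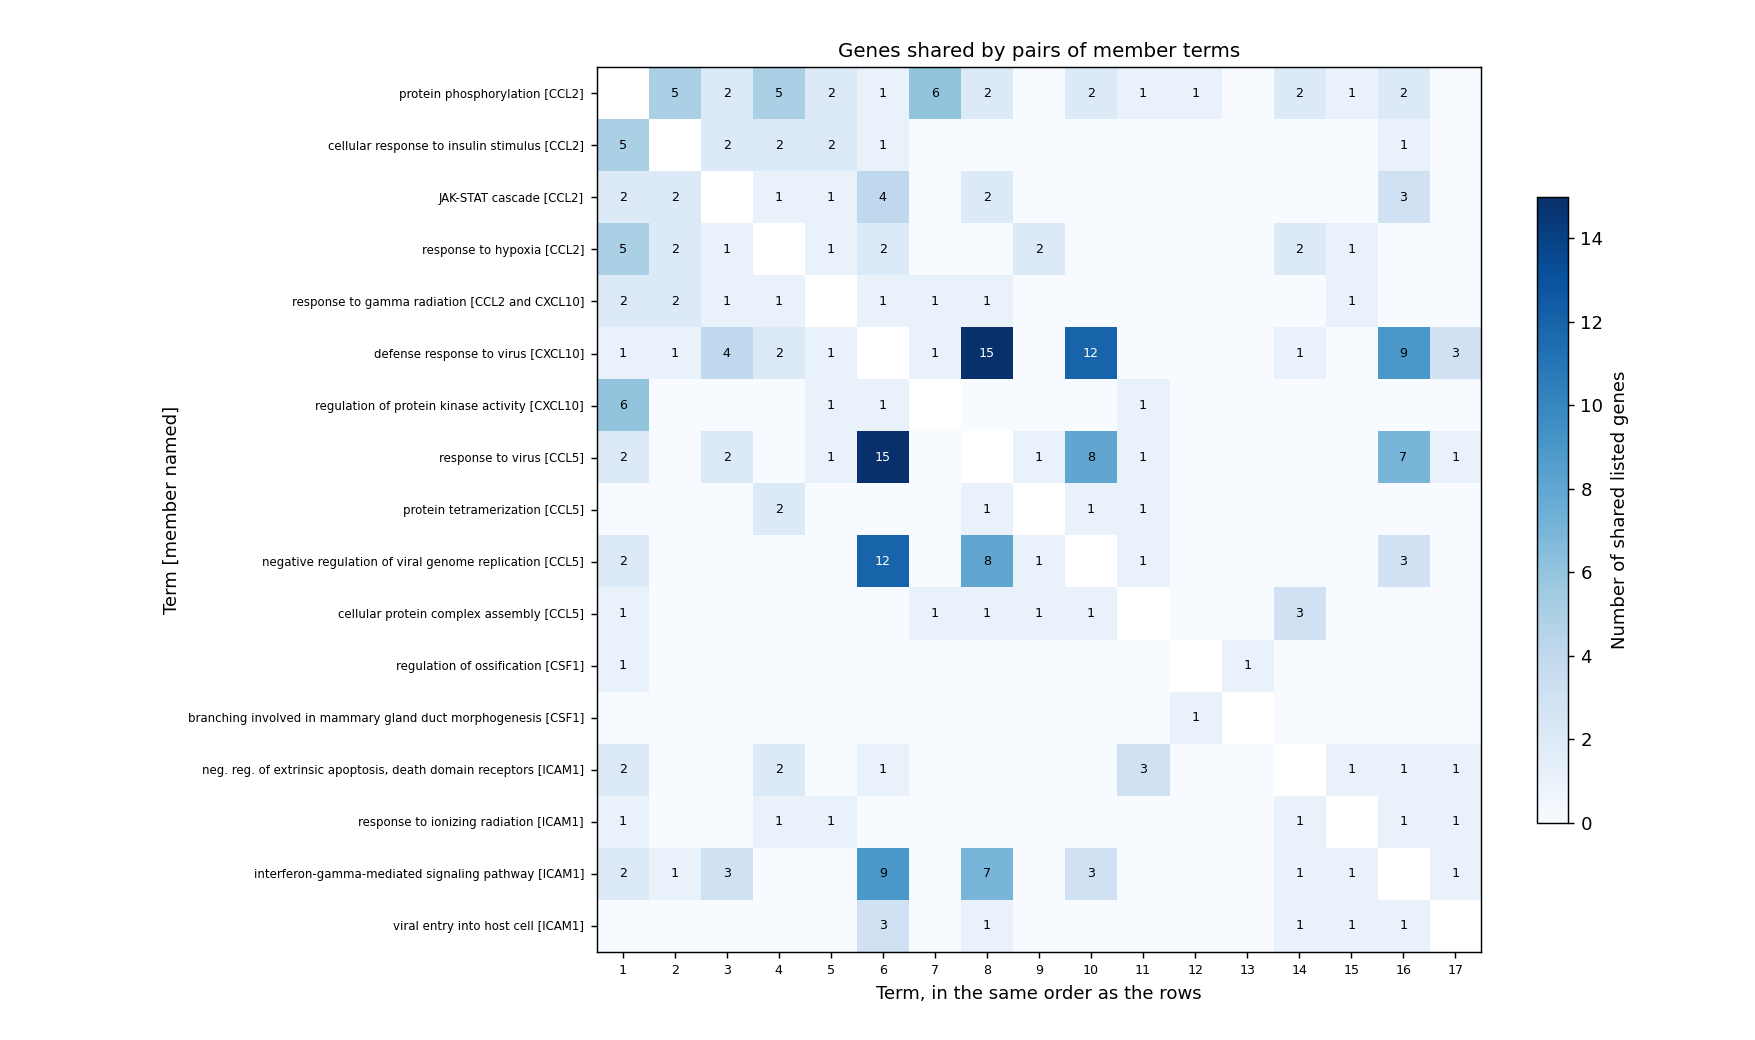
Number of listed genes shared by each pair of the 17 member terms (colour and figures), ordered by member on both axes, with empty cells for none. The darkest cells join the CXCL10 term defense response to virus to the CCL5 terms response to virus (15 genes) and negative regulation of viral genome replication (12 genes), while CSF1 terms share at most 1 gene with any other.

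The heat map of shared genes also shows CCL2 largely outside the antiviral block, apart from the JAK-STAT cascade, which shared 4 genes with defense response to virus. Regulation of protein kinase activity shared 6 of its 14 genes (42.9%) with protein phosphorylation, namely CAMKK2, CDK4, CSNK2B, MTOR, PRKAB1 and PRKAB2. CCL5 and CXCL10 thus had 22 partner genes in common, which is 33.3% of CCL5's 66 and 29.7% of CXCL10's 74 once members are set aside. CCL2 and CXCL10 had 23 in common, 10.9% of CCL2's 211 partners and 31.1% of CXCL10's. Unlike CCL5 and CXCL10, this pair shared a term, response to gamma radiation. The other genes of that term are among the 23 by construction, so the 2 overlaps are not like measures. CSF1 had 10 partners and shared 1 with CCL2 and 0 with each of the other three.

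In all, 370 other genes were named in a member term, of which 301 were in 1, 53 in 2, 12 in 3 and 4 in 4. Those in 4 included OAS1, OAS3 and OASL, which were in the same antiviral and interferon-gamma terms beside CCL5, CXCL10 and ICAM1. Genes in 3 member terms included ADAR, BST2 and ISG20 beside CCL5 and CXCL10, HYAL2 beside CCL5, CXCL10 and ICAM1, and IFNAR1 and IFNAR2 beside CCL2, CCL5 and CXCL10. CSNK2B, a casein kinase subunit, was in terms of all 3 chemokines, and JAK2 in terms of CCL2 and ICAM1. OAS2 and RSAD2 were also in 3.

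Likeness between genes was measured as the Jaccard index of their sets of terms, over the 314 terms and among genes in at least 3 of them. ISG20 and RSAD2 were most like CCL5, each with 2 shared terms and an index of 0.333, followed by OASL at 0.286. The nearest to CCL2 was CREB1 at 0.250, and PIK3R1, tied with others, stood at 0.200, each with 2 shared terms. LRP5 was nearest to CSF1, at 0.200 from 1 shared term. CXCL10 and ICAM1 shared no more than 1 term with any nearest gene, at 0.200 and 0.167, and 9 and 16 genes were tied there. With so few terms per gene the index takes few values, and these are descriptions.

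The table was also searched for genes of related pathways. The members were chosen because the table names them, so they are left out of the shares given here. Of 32 other chemokine ligands, 2 were named (6.25%): CCL22, which was beside CCL5 in response to virus, and CXCL16, which was in response to interferon-gamma. None of 22 chemokine receptors was named, and of 11 colony-stimulating factors and receptors beside CSF1 only KITLG (9.09%), so that neither CSF1R, the CSF1 receptor, nor its other ligand IL34 was. Of 15 leukocyte adhesion genes beside ICAM1, 0 were named, among them the integrin subunits ITGAL, ITGAM and ITGB2, which form its receptors. For comparison, 15.8% of background genes were named in any term. These shares were not tested, and a gene outside every listed term can still have been in the list.

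Of 25 NF-kappaB and TNF signalling genes, 6 were named (24.0%), with TNFAIP3 in 16 terms, TRAF2 in 15, TRAF6 in 14, IKBKG in 10, IKBKB in 8 and REL in 3. TNFAIP3 and TRAF2 stood beside ICAM1 in the death receptor term, and IKBKB and IKBKG beside CCL5 in response to virus. Interferon and STAT signalling had 10 of 16 genes named (62.5%), and each of the 10 was in at least 1 member term, among them IRF3, JAK2, IRF7, IFNAR1, IFNAR2, JAK1, IFNGR1, IFNGR2 and TYK2. The median over that list was 3 terms per gene, against 0 over the chemokine ligands, counting unnamed genes as 0. Of all named genes, 14.2% were in a member term. The member terms include the JAK-STAT cascade and interferon-gamma-mediated signaling pathway, whose definitions cover such genes. Their place in member terms is therefore not read as a result. Of 11 interleukins, IL33 was named, in defense response to virus with CXCL10. Of the markers of other cells of the brain, 0 of 8 for microglia and macrophages, 0 of 5 for astrocytes and 0 of 4 for T cells were named, and PECAM1 of 6 endothelial genes (16.7%). Nothing is read from lists this short beside the 15.8% of all background genes. A table of enriched terms gives no level for such markers, so their part in these lists was not tested.

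**Figure D4:**
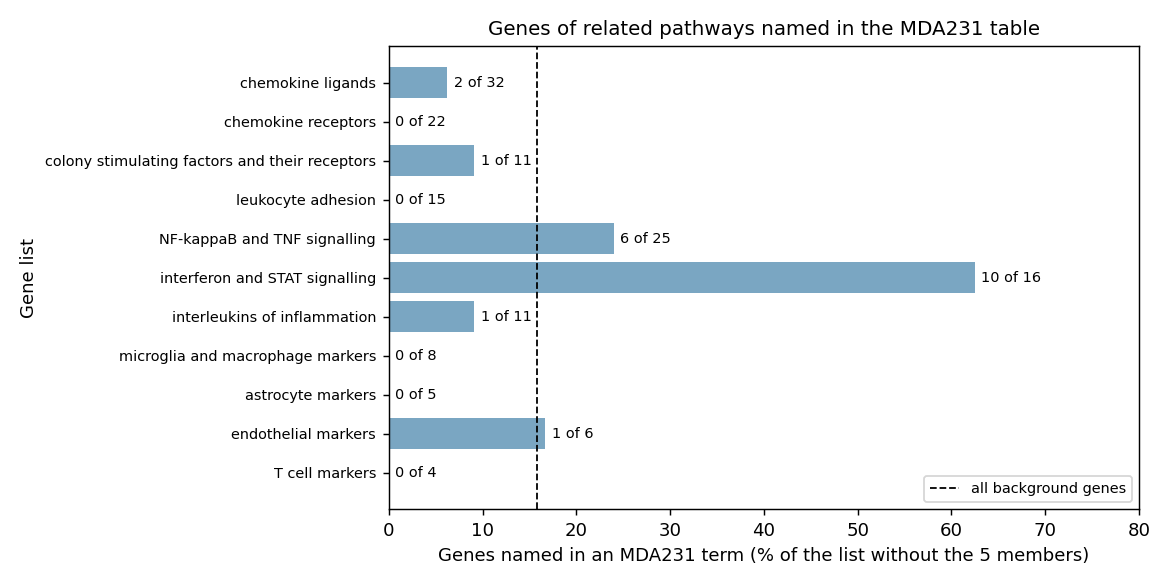
Share of each gene list named in at least 1 MDA231 term (bars, percent of the list, with counts), beside the 15.8% of all background genes (dashed line). The 5 members are left out of their lists. Interferon and STAT signalling reaches 62.5%, chemokine ligands 6.25% and chemokine receptors 0.

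The names of the terms were also compared with the members' known roles. None of the 314 names contained chemotaxis or chemokine, inflammatory, macrophage, monocyte or microglia, or lipopolysaccharide. Words for viruses stood in 7 names, of which 4 named a member, and interferon in 6, of which 1 did, while type I interferon signaling pathway named none of the 5. Radiation stood in 3 names, of which 2 named a member. Over all 314 terms 17 named a member, and no word was tested as particular to the members. The NF-kappaB pathway stood in 3 names and cytokines, interleukins or tumor necrosis factor in 3, and no member was in any of these. Why a given term is not listed is not known here.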

How the data were processed

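The values used come from the authors' deposited tables of Gene Ontology terms for MDA231 and HCC1954. The tools STAR and HTSeq and the builds GRCh38 and GRCm38 are named in the submitters' processing notes. No version, enrichment tool or rule for selecting genes is given in the sources used here. Per the file headers each table gives, for each term, numbers of genes, p-values (unadjusted, Bonferroni and Benjamini) and a fold enrichment ratio. The deposited false discovery rate runs above 1 and was read as a percent. The Benjamini column is the adjusted p throughout, with a threshold of 0.05. Library depth is unknown here.

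Identifiers were matched to symbols for 2642 of 2646 MDA231 genes. Terms naming each member were counted, as were shared terms and partner genes. For each fold, a 95% Clopper-Pearson (exact) interval was taken for the term's share of the 3626 listed genes that had a process, and both bounds were divided by the term's background share. Named were the 5 members, the 3 genes most like each (Jaccard index, genes in at least 3 terms, ties by name), the 12 partners in most member terms, at most 8 genes per list (2 more interferon genes and partners tied at 3 terms were added after their values were seen), and every member term; other genes of a term were picked as examples after it was seen, as were the promoter motifs and the words searched in term names. Some genes that these rules select are not reported here. The members, the 11 lists and the rules were chosen with earlier results of these data known. The counting was tested on simulated tables with planted genes. The planned test of IP against input was not run, since no file holds a value per library. Promoter sequences are RefSeq's, and the set used here covered 2 of 5 members. Python 3.11.15, pandas 2.3.3, SciPy 1.17.1, NumPy 2.4.6 and matplotlib 3.10.9 were used.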

Additional observations from a re-analysis of the deposited data

How the results depend on the processing

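No paired analysis was possible because the files hold no value per library, and leaving out a replicate could not be run for the same reason. The single term shared by 2 members was lost (0 terms) when only terms with an unadjusted p under 0.05 were counted and when CCL2 or CXCL10 was left out, and stayed at 1 with CCL5, CSF1 or ICAM1 left out. Of the 17 member terms, 1 passed the Benjamini threshold, 0 passed with the authors' Bonferroni p (3.18% of all listed terms did), 3 with their false discovery rate under 5 percent (11.5%) and 12 with no adjustment (68.2%). CCL2 fell from 5 terms to 2 and CSF1 from 2 to 0 with an unadjusted p under 0.05. Terms of at least 10 background genes, and terms collapsed at a Jaccard index of 0.5 (296 of 314 kept), left unchanged the counts of member terms, shared terms and terms per member. The smallest member term held 11 background genes, so the first of these settings could not change the counts. Leaving the members out lowered 16 of 17 folds as rounded here, each staying within its interval and none moving by more than 1.12 times. The fold of protein phosphorylation was 1.36 both times after rounding. A lower fold follows from arithmetic when a listed gene is taken out of a term, so only the size of the change is informative. The number of identifiers equalled the deposited count in all 17 terms. Ranking likeness by the number of shared terms in place of the Jaccard index, with ties by name, kept 5 of the 15 nearest genes (3 for each member), since many genes tie at 1 or 2 shared terms. The number of genes per term limits these folds most in the CSF1 terms, with 6 listed genes each.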

Other observations

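CCL2 and CCL5 lie within the chemokine genes of chromosome 17, and the genes around them were looked up after the data were seen. Of the CC chemokine genes of the list on that chromosome, CCL7, CCL11, CCL8, CCL13 and CCL1, which lie between CCL2 and CCL5, and CCL3 and CCL4, beyond CCL5, were in 0 MDA231 terms. CCL2 was in 5 and CCL5 in 4, but both were chosen because MDA231 terms name them, so the contrast is not read as a result. CXCL16, a CXC chemokine gene on the same chromosome, was in 1 term. Of all background genes 15.8% were named in any term, and so few genes were not tested against that share. Genes outside every listed term are not printed in the table.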
